A study of Homo sapiens with 80 samples.

Results

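The 9 genes described here encode chaperones and cochaperones that are textbook targets of heat shock factor 1 (HSF1): HSPA1A, HSPA1B, DNAJB1, HSPH1, HSPA8, HSPD1, HSPE1, HSPB1 and BAG3. They were chosen by name. Each symbol matched 1 Ensembl identifier, and thus 9 of the 60663 genes with a usable record in the deposited count table. RNA-Seq of bulk RNA from Jurkat T cells (clone E6-1), an immortalized human T lymphocyte line, was performed after depletion of ribosomal RNA. In the 9 g experiment, cells were spun in pipettes in groups named for the time at 9 g, of which hypg020s and hypg075s stand for 20 and 75 s and hypg3, hypg5, hypg7, hypg9, hypg15 and hypg60 for as many minutes. Their controls remained in pipettes at 1 g, Ctrl for 15 min and Ctrl60 for 60 min. Groups shorter than hypg15 were first held at 1 g to reach 15 min in all. In the other experiment, cells spent 5 min at 300 g and were lysed after a waiting time of 1 min (wait1min), 4 min (wait4min) or 15 min (wait15min). The heat group was kept at 42 °C for 5 min, and both treatments had the control Ctrl_300g at 1 g. The cells of Ctrl_300g were fixed directly, so elapsed time and handling cannot be told apart from force or heat. Groups comprised 6 libraries at 9 g (5 for hypg15) and 4 libraries at 300 g and heat. All groups shared 1 clonal cell line, and no genotype differed between them. Nothing states whether libraries of a group came from separate cultures, so p-values measure the spread between libraries, which may be technical.

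When proteins unfold, HSF1 is released from chaperones, assembles into trimers and binds heat shock elements, which are inverted repeats of the unit nGAAn in front of its target genes. The induced chaperones bind and refold unfolded proteins and return HSF1 to its inactive state. In T cells it is known from fever temperature. HSPA1A and HSPA1B encode the same inducible HSP70 protein and HSPA8 its constitutive relative, DNAJB1 is the HSP40 cochaperone that delivers substrates and stimulates ATP hydrolysis, and HSPH1 (HSP110) and BAG3 exchange its nucleotide. HSPD1 and HSPE1 (HSP60 and HSP10) form the mitochondrial folding chamber, and HSPB1 (HSP27) is a small chaperone that holds unfolded clients.

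RefSeq promoter windows (GRCh38.p14) of 250 bases before a transcription start were available for all 9 genes, 12 windows in all. Motifs were searched as GAANNTTC and TTCNNGAA (2 units) and as either of these extended by a further NNGAA or NNTTC in the alternating order (3 units, overlapping the former). Each motif equals its reverse complement or is paired with it, so both strands were covered. A 2-unit match was found in 6 of the 9 genes and a 3-unit match in 2, HSPA8 and HSPD1. Of all 35116 windows in the RefSeq table, 5.78% held GAANNTTC, 6.62% TTCNNGAA and 0.441% a 3-unit match. Counted per gene, these were 7.05%, 8.12% and 0.557% of 27305 genes. The windows of HSPH1, HSPE1 and BAG3 held none of these letters. A match is a description of the sequence and not evidence of binding. The windows of 5 genes, the HSP70 genes HSPA1A, HSPA1B and HSPA8 and their cochaperones DNAJB1 and HSPH1, are given 5′ to 3′ on the strand of the gene, with the matches in capitals: HSPA1A at chr6:31815293-31815542 (+), HSPA1B at chr6:31827488-31827737 (+), DNAJB1 at chr19:14518398-14518647 (−), HSPA8 at chr11:123062137-123062386 (−) and HSPH1 at chr13:31162389-31162638 (−), the last shown as a window with no match.
HSPA1A: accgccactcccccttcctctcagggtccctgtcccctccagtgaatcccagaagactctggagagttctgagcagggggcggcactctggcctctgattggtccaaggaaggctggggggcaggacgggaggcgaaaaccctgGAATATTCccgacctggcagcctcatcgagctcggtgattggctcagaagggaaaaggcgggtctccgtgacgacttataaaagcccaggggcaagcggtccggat
HSPA1B: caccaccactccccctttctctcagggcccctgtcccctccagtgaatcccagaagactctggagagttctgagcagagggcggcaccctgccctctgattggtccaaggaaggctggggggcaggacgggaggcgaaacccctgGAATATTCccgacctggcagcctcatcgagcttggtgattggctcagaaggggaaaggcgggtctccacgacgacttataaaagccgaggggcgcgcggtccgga
DNAJB1: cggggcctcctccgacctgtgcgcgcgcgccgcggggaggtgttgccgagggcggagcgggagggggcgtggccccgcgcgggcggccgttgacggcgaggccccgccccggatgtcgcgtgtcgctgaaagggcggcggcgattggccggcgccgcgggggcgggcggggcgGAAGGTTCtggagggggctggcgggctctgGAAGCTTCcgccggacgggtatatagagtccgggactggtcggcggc
HSPA8: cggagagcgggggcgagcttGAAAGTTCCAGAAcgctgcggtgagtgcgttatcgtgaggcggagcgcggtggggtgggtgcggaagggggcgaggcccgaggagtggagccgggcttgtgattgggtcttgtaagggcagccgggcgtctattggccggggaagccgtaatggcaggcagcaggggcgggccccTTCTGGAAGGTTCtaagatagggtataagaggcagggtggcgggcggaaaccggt
HSPH1: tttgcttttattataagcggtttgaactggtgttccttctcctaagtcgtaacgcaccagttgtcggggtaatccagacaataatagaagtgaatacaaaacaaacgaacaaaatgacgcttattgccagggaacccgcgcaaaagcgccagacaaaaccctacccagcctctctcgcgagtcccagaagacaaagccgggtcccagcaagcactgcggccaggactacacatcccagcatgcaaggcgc
With a shift of 1 base, the windows of HSPA1A and HSPA1B were equal at 235 of 249 bases, and both held the same match GAATATTC, whose first base lay 106 and 105 bases before the start. DNAJB1 held 2 matches close to the start, beginning 77 and 47 bases before it, and HSPA8 held 3-unit matches beginning 230 and 55 bases before it. In HSPD1, 2 overlapping 3-unit matches began 245 and 240 bases before 1 of its 2 annotated starts. HSPD1 and HSPE1 lie head to head on chromosome 2, and the window of the other start of HSPD1 overlaps with that of HSPE1 on the opposite strand.

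In GRCh38, HSPA1A (ENSG00000204389) and HSPA1B (ENSG00000204388) lie close together on chromosome 6 at 31815543 to 31817946 and 31827738 to 31830254. DNAJB1 (ENSG00000132002) spans 14514769 to 14560391 on chromosome 19, HSPA8 (ENSG00000109971) 123057489 to 123063230 on chromosome 11 and HSPH1 (ENSG00000120694) 31134973 to 31162388 on chromosome 13. HSPD1 (ENSG00000144381) spans 197486584 to 197516737 and HSPE1 (ENSG00000115541) 197500140 to 197503449 on chromosome 2, HSPB1 (ENSG00000106211) 76302673 to 76304295 on chromosome 7 and BAG3 (ENSG00000151929) 119651380 to 119677819 on chromosome 10. The GC content of the gene sequence, with which the results at 300 g moved, was 39.3% in HSPH1, 45.0% in HSPD1, 46.6% in HSPE1 and HSPA8, 55.2% in DNAJB1, 58.3% in BAG3, 58.7% in HSPA1B, 59.3% in HSPA1A and 63.6% in HSPB1.

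Depth was 22634465 to 41893490 assigned read pairs per library at 9 g (59 libraries) and 24417717 to 41220541 at 300 g and heat (20 libraries). Library 75 of hypg15 had no counts on chromosomes 4 to 9, X, Y and MT, where HSPA1A, HSPA1B and HSPB1 lie, and was left out. Markers of the T lineage were expressed in every library, 10 of 10, with a summed level of 2763 to 4214 CPM. Of the B cell list, CD79A was expressed at 28.0 to 72.2 CPM, whereas MS4A1 and CD79B reached at most 0.243 CPM. Of the fibroblast list, COL1A1 alone was expressed (3.47 to 9.46 CPM), and the myeloid, epithelial and red cell lists summed to at most 0.841 CPM.

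Unless stated otherwise, levels are CPM, read counts scaled to a library size of 1000000 after TMM normalization, which was computed separately for each experiment. Per kb of exon length, the levels in Ctrl differed widely. HSPA8 had 397.1 ± 28.1 CPM per kb (SD, n = 6), followed by HSPD1 with 95.0 ± 7.03, HSPB1 31.8 ± 1.36, HSPE1 21.9 ± 1.81, DNAJB1 18.2 ± 0.79, BAG3 16.8 ± 0.88, HSPH1 10.4 ± 1.01, HSPA1B 4.48 ± 0.44 and HSPA1A 0.096 ± 0.047. Of neighbours in this order, DNAJB1 and BAG3 alone overlapped in their libraries. By these counts, the inducible HSP70 genes stood at the low end and their constitutive relative at the high end. HSPA1A and HSPA1B share reads. Of all stretches of 100 bases in the HSPA1A transcripts, 67.3% also occur in HSPA1B, and of those of HSPA1B 72.7% occur in another gene. Read pairs that map to several places were not counted, so the levels of both genes may be too low. HSPA1A contributed 0.264% to 4.22% of the counts of this pair, with 1 to 74 counts per library, so its own level is uncertain. Added up before the test, both genes gave the same calls as HSPA1B except at hypg3 (below).

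**Figure D1:**
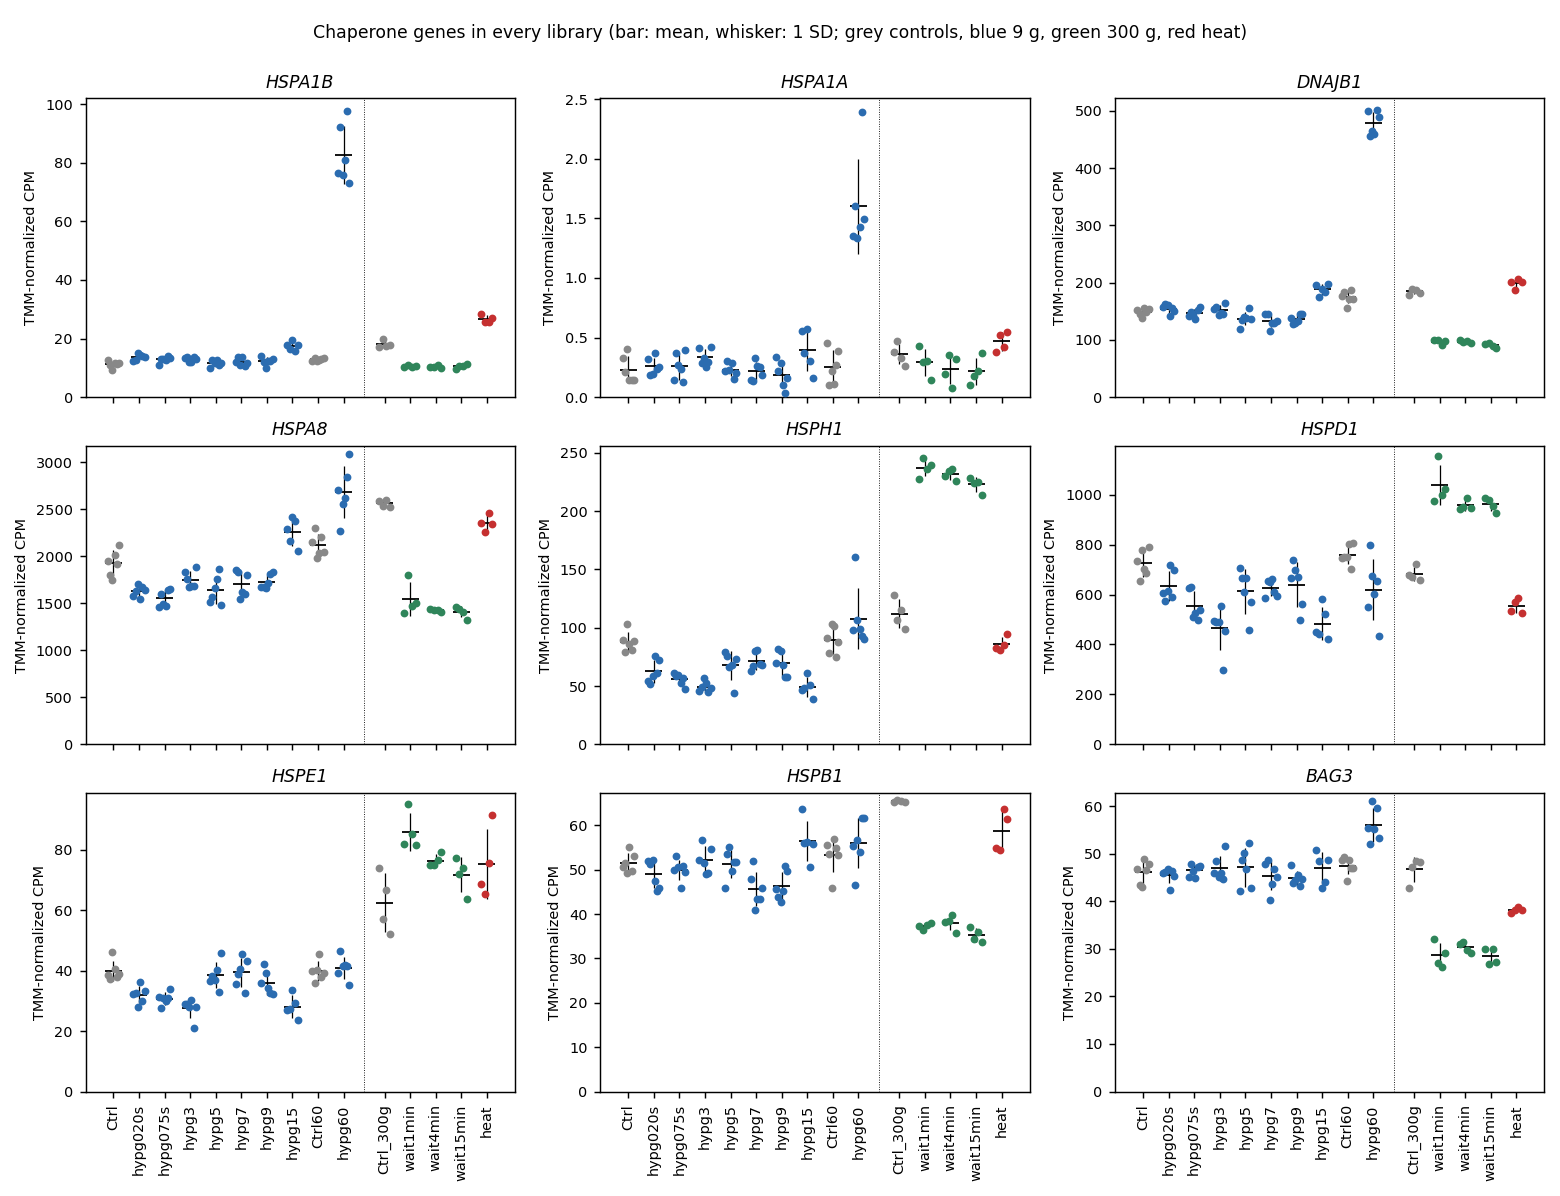
TMM-normalized CPM of the 9 genes in every library of the 15 groups, 1 panel per gene (vertical axis linear, in CPM), with a bar at the group mean and a whisker of 1 SD. HSPA1A, HSPA1B and DNAJB1 stand out at hypg60, where all 6 libraries lie above all libraries of Ctrl60, and HSPH1 and HSPD1 are highest after 300 g, without correction for GC content.

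In the first 3 min at 9 g, the genes were divided. HSPH1, HSPD1, HSPE1 and HSPA8 were downregulated against Ctrl, while HSPA1B rose slightly at hypg020s and hypg075s. HSPH1 had 79.0, 86.9 and 102.8 CPM in Ctrl (lowest, median and highest library), 52.1, 59.8 and 75.8 CPM at hypg020s, 47.8, 57.7 and 61.2 CPM at hypg075s and 44.7, 48.4 and 57.3 CPM at hypg3. At each of these times all 6 libraries lay below all control libraries. The log2 fold change of HSPH1 was −0.49 ± 0.09 (SE; adjusted p = 0.0026 in edgeR's quasi-likelihood test, Benjamini-Hochberg), −0.63 ± 0.07 (adjusted p = 1.6e-05) and −0.85 ± 0.07 (adjusted p = 7.2e-06). HSPD1 fell from a median of 719.8 CPM in Ctrl to 608.8, 532.2 and 489.8 CPM, by 0.20, 0.37 and 0.67 on the log2 scale, and its libraries overlapped with Ctrl at hypg020s but not at hypg075s and hypg3. HSPE1, the partner of HSPD1, fell from 38.8 CPM to 32.5, 31.0 and 28.5 CPM, by 0.32, 0.36 and 0.56 on the log2 scale, with no overlap at any of the 3 times. HSPA8 fell by 0.25, 0.30 and 0.16 on the log2 scale, from 1934.9 CPM to 1634.0, 1543.2 and 1715.9 CPM, and overlapped with Ctrl at hypg3 alone.

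HSPA1B had 9.22, 11.5 and 12.5 CPM in Ctrl and 12.4, 13.8 and 15.2 CPM at hypg020s, where 5 of 6 libraries exceeded all control libraries. Its log2 fold change was 0.27 ± 0.08 at hypg020s (adjusted p = 0.026) and 0.21 ± 0.08 at hypg075s (adjusted p = 0.047). At hypg3 it was 0.17 ± 0.07 (adjusted p = 0.067), and 0.18 with adjusted p = 0.049 when HSPA1A and HSPA1B were added up. Both calls of HSPA1B at the shortest times were lost with a correction for GC content (log2 fold changes of 0.16, adjusted p = 0.15, and 0.08, adjusted p = 0.35), and at hypg3 it was then at −0.035 (adjusted p = 0.69). That at hypg075s was also lost with RLE normalization (adjusted p = 0.061), without the filter (adjusted p = 0.11) and with all groups in the model (adjusted p = 0.060). With 3 surrogate variables, HSPA1B was called up at all 3 times (0.31, 0.31 and 0.33, with adjusted p = 0.0024, 0.0082 and 0.0145), and DESeq2 called it at hypg3 as well (adjusted p = 0.025). DNAJB1, HSPB1 and BAG3 did not pass the test at these times, with log2 fold changes from −0.08 to 0.05. HSPA1A did not pass the filter on low counts before hypg60.

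Counted over the 8 members that were tested, 5 were called at hypg020s (1 up, 4 down; of all genes tested 15.2% were called, 6.66% up and 8.58% down), 5 at hypg075s (1 up, 4 down; 31.3% of all genes, 16.8% up and 14.4% down) and 4 at hypg3 (all down; 41.3% of all genes, 16.9% up and 24.4% down). The median log2 fold change of the 8 members was −0.14, −0.16 and −0.09, against −0.00064, 0.00074 and −0.016 for all genes tested. Across genes, log2 fold changes rose with GC content at these times (Spearman's rho of 0.60, 0.57 and 0.68), and genes are not independent replicates. With the GC correction, HSPH1 still fell, by 0.24, 0.38 and 0.50 on the log2 scale, HSPA8 lost its call at hypg3 (−0.10, adjusted p = 0.062), and HSPB1 (−0.21, −0.19 and −0.26) and BAG3 (−0.14, −0.10 and −0.21) were called down as well. DNAJB1 was called down at hypg075s and hypg3 (−0.12 and −0.16). With 3 surrogate variables, HSPH1 was at −0.27, −0.30 and −0.28 and HSPA8 at −0.30, −0.33 and −0.21, all called. HSPD1 was then at −0.094 (adjusted p = 0.115), −0.13 (adjusted p = 0.038) and −0.14 (adjusted p = 0.051), and HSPE1 at −0.21 (adjusted p = 0.018), −0.17 (adjusted p = 0.14) and −0.22 (adjusted p = 0.083).

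From 5 to 9 min, fewer members were called. At hypg5, 0 of the 8 tested members were called by edgeR (6.02% of all genes, 4.33% up and 1.69% down), 3 had an unadjusted p under 0.05 (HSPH1, HSPA8 and HSPD1), and DESeq2 called HSPH1 and HSPA8 as downregulated. With the GC correction 4 members were called down (15.8% of all genes). With 3 surrogate variables DNAJB1 (−0.11, adjusted p = 0.0079) and HSPA8 (−0.23) were called (5.3% of all genes). HSPH1 had 44.4, 70.8 and 79.0 CPM there, and its libraries still lay below all control libraries. At hypg7, HSPH1 (−0.30 ± 0.07), HSPD1 (−0.21 ± 0.05) and HSPB1 (−0.18 ± 0.06) were downregulated (3 of 8 tested; 12.8% of all genes, 6.64% up and 6.19% down). With 3 surrogate variables these 3 calls were lost (−0.12, −0.078 and −0.097, with adjusted p = 0.145, 0.355 and 0.247). At hypg9, HSPH1 (−0.33 ± 0.09), HSPA8 (−0.15 ± 0.05) and HSPB1 (−0.15 ± 0.05) were downregulated (3 of 8 tested; 19.6% of all genes, 11.3% up and 8.34% down). HSPE1 was back at 39.7 CPM in median at hypg7, within the range of Ctrl. DNAJB1 had its lowest medians at these times, 131.6 CPM at hypg7 and 135.8 CPM at hypg9 against 150.6 CPM in Ctrl. Its log2 fold changes of −0.16 and −0.12 were not called by edgeR (adjusted p = 0.056 and 0.054). They were called by DESeq2 (adjusted p = 0.0375 and 0.0467) and with the GC correction (−0.17 and −0.16), and at hypg7 also with 3 surrogate variables (−0.10, adjusted p = 0.0255). With these variables, no member was called at hypg9.

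**Figure D2:**
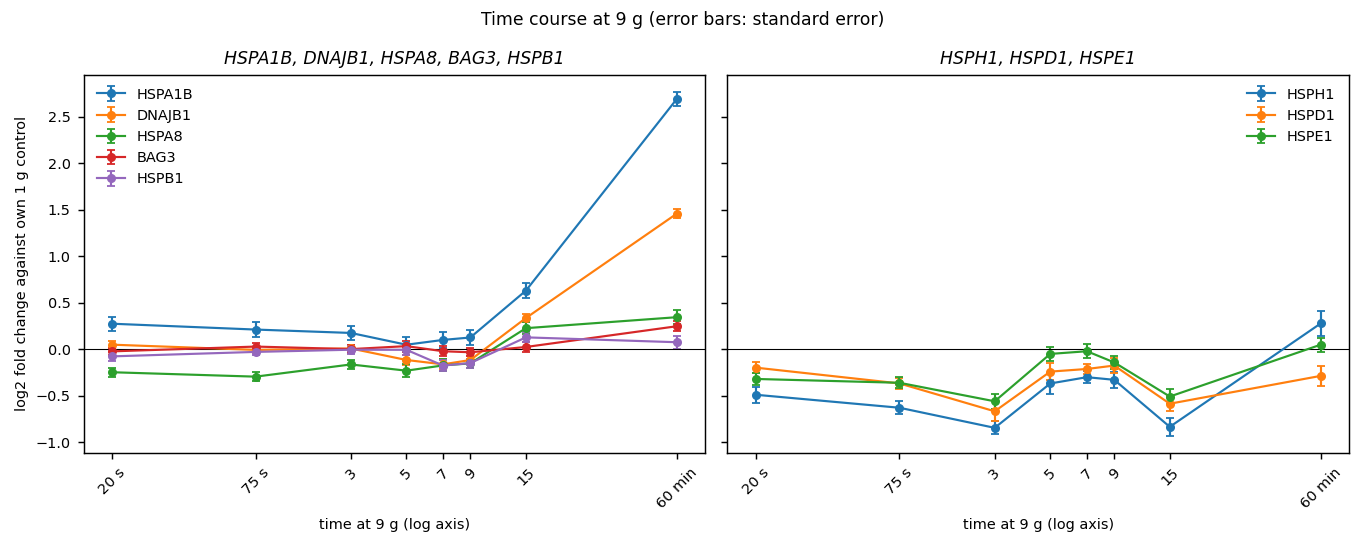
Log2 fold change (vertical axis, with SE as whisker) of 8 genes at 9 g against time of centrifugation on a log axis, with HSPA1B, DNAJB1, HSPA8, BAG3 and HSPB1 on the left and HSPH1, HSPD1 and HSPE1 on the right. HSPA1B and DNAJB1 rise between 9 and 60 min, and HSPH1 is lowest at 3 and 15 min, with −0.85 and −0.84. The libraries of these times have another number range than all others at 9 g, and with 3 surrogate variables HSPH1 is at −0.28 and −0.049 there.

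At hypg15 the genes parted further. HSPA1B, DNAJB1 and HSPA8 were upregulated, while HSPH1, HSPD1 and HSPE1 were downregulated (3 up, 3 down of 8 tested; 53.4% of all genes, 25.4% up and 27.9% down). The 5 libraries of HSPA1B had 17.8, 16.4, 19.6, 15.9 and 17.8 CPM, all above the highest control library of 12.5 CPM, with a log2 fold change of 0.63 ± 0.08 (adjusted p = 3.5e-05). DNAJB1 had 195.6, 175.0, 188.6, 184.3 and 197.7 CPM, all above the 155.0 CPM of the highest control library (0.34 ± 0.04, adjusted p = 3.1e-05). HSPA8 rose by 0.23 ± 0.07 (adjusted p = 0.0098), with 4 of 5 libraries above all controls.

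HSPH1 had 46.8, 48.7, 61.4, 50.5 and 38.5 CPM at hypg15, all below Ctrl (−0.84 ± 0.09, adjusted p = 9.4e-06), and HSPD1 and HSPE1 fell by 0.59 and 0.51 on the log2 scale, again without overlap. BAG3 (0.023 ± 0.056) and HSPB1 (0.13 ± 0.05, adjusted p = 0.058) did not pass the test. Spearman's rho of log2 fold change with GC content across genes was 0.68 at hypg15. With the GC correction, HSPA1B was at 0.36 (adjusted p = 0.0010), DNAJB1 at 0.12 (adjusted p = 0.0065), HSPH1 at −0.35 (adjusted p = 0.0013), HSPA8 at 0.28, HSPD1 at −0.44 and HSPE1 at −0.46, all called, and HSPB1 (−0.21) and BAG3 (−0.24) were called down as well. Without the correction, HSPB1 was called when library 4 of Ctrl (0.17, adjusted p = 0.029) or library 79 of hypg15 (0.16, adjusted p = 0.026) was left out. With library 75 kept, HSPA1B had a log2 fold change of 0.37 ± 0.77 (adjusted p = 0.81) and was no longer called.

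The libraries of hypg3 and hypg15 are numbered 69 to 80 and all other libraries at 9 g 1 to 48, so the number range and these time points cannot be separated. Compared within the range, hypg15 against hypg3 (chosen after seeing the data; 2.54% of all genes called) showed HSPA1B at 0.43 ± 0.08 (adjusted p = 0.0066), DNAJB1 at 0.30 ± 0.05 (adjusted p = 0.0037) and HSPA8 at 0.36 ± 0.06 (adjusted p = 0.0038). HSPH1, HSPD1 and HSPE1 did not pass this test, with −0.020 ± 0.094, 0.051 ± 0.12 and 0.021 ± 0.095. With 3 surrogate variables in the model, HSPA1B (0.83, adjusted p = 1.3e-06) and DNAJB1 (0.27, adjusted p = 9.3e-06) alone were called at hypg15 (1.04% of all genes), and HSPH1 was at −0.049 (adjusted p = 0.82).

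The upregulation was largest at hypg60. HSPA1B had 72.9, 78.7 and 97.6 CPM against 12.2, 12.9 and 13.3 CPM in Ctrl60, and the groups did not overlap. This was a 6.46-fold higher level, with a log2 fold change of 2.69 ± 0.08 (adjusted p = 2.7e-11). HSPA1A, at 37 to 74 counts per library against 3 to 15, had 1.34, 1.46 and 2.39 CPM against 0.098, 0.244 and 0.452 CPM (2.61 ± 0.28, adjusted p = 1.3e-05). It passed the filter on low counts only through its hypg60 libraries. DNAJB1, the cochaperone of both, had 456.7, 477.0 and 500.9 CPM against 156.4, 174.4 and 187.8 CPM, a 2.75-fold higher level (1.46 ± 0.05, adjusted p = 2e-10). The constitutive HSPA8 rose by 0.34 ± 0.07 (adjusted p = 0.0029) from a far higher level, with 2265.3, 2660.1 and 3086.7 CPM against 1983.9, 2096.1 and 2297.4 CPM, and 5 of 6 libraries lay above all controls. BAG3 had 51.9, 55.3 and 61.0 CPM against 44.3, 47.8 and 49.3 CPM, without overlap (0.25 ± 0.05, adjusted p = 0.0036). The 1 myeloid marker of 4 that was tested, CD14, was called up there as well (0.97, adjusted p = 0.0068), with the list at 0.501 to 0.827 CPM in sum against 0.332 to 0.685 CPM. The T lineage list had 1 of 10 down, with 2965 to 3961 CPM in sum against 3532 to 4012 CPM. The part of these markers in the results was not tested.

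The remaining 4 members were not called at hypg60. HSPE1 (0.048 ± 0.076) and HSPB1 (0.075 ± 0.071) stood near 0, HSPH1 was at 0.28 ± 0.13 (adjusted p = 0.13) and HSPD1 at −0.29 ± 0.11 (adjusted p = 0.064). Leaving out HSPA1A, 4 of 8 members were called and all of these were upregulated, against 30.1% of all genes in either direction and 17.1% upward and 13% downward. HSPH1 was called with the GC correction (0.52 ± 0.05, adjusted p = 2.3e-06) and with 3 surrogate variables (0.74 ± 0.07, adjusted p = 1.6e-13), BAG3 lost its call with the former (0.14, adjusted p = 0.12), and Spearman's rho of log2 fold change with GC content across genes was 0.39. HSPD1 was called as downregulated by DESeq2 (−0.29, adjusted p = 0.0441), with the GC correction (−0.25, adjusted p = 0.016), without the filter and with all groups in the model, and HSPE1 as upregulated with 3 surrogate variables (0.37, adjusted p = 0.0078). Per kb, DNAJB1 moved to 58.4 ± 2.48 CPM per kb and HSPA1B to 32.8 ± 3.96 (SD, n = 6), where its libraries overlapped with those of HSPB1 (34.5 ± 3.48).

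The column names of Ctrl60 mention HEPES, and whether other groups contained it is unknown. Against Ctrl in place of Ctrl60 (chosen after seeing the data; 32.2% of all genes called), HSPA1B was upregulated by 2.88, DNAJB1 by 1.69, HSPA8 by 0.48 and BAG3 by 0.29 on the log2 scale. Between the controls themselves, Ctrl60 against Ctrl, edgeR called 0 of 8 tested members (0.0124% of all genes, 0.00621% up and 0.00621% down), 3 had an unadjusted p under 0.05 (HSPA1B, DNAJB1 and HSPA8), and DESeq2 called 0. All 6 libraries of DNAJB1 in Ctrl60 lay above all of Ctrl, with 156.4 to 187.8 against 137.9 to 155.0 CPM (0.23 ± 0.04, adjusted p = 0.15). It was called with the GC correction (0.22, adjusted p = 0.00022) and with 3 surrogate variables (0.23, adjusted p = 7.6e-11).

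The change at hypg60 was also compared with that at hypg9, each against its own control, in a single model. The difference was 2.86 ± 0.53 for HSPA1A (adjusted p = 0.0028), 2.58 ± 0.12 for HSPA1B (adjusted p = 3.6e-14), 1.59 ± 0.06 for DNAJB1 (adjusted p = 3.6e-15), 0.51 ± 0.08 for HSPA8 (adjusted p = 0.0012) and 0.29 ± 0.06 for BAG3 (adjusted p = 0.014). Leaving out HSPA1A, which passed the filter through hypg60, 4 of 8 members were called, against 2.04% of all genes (1.73% up and 0.304% down). HSPH1 was at 0.62 ± 0.17 and not called by edgeR (adjusted p = 0.054). It was called by DESeq2 (adjusted p = 0.0235), with the GC correction (0.75 ± 0.08, adjusted p = 1.5e-06) and with 3 surrogate variables (0.82, adjusted p = 8.4e-18), while BAG3 lost its call with the GC correction (0.24, adjusted p = 0.093).

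**Figure D3:**
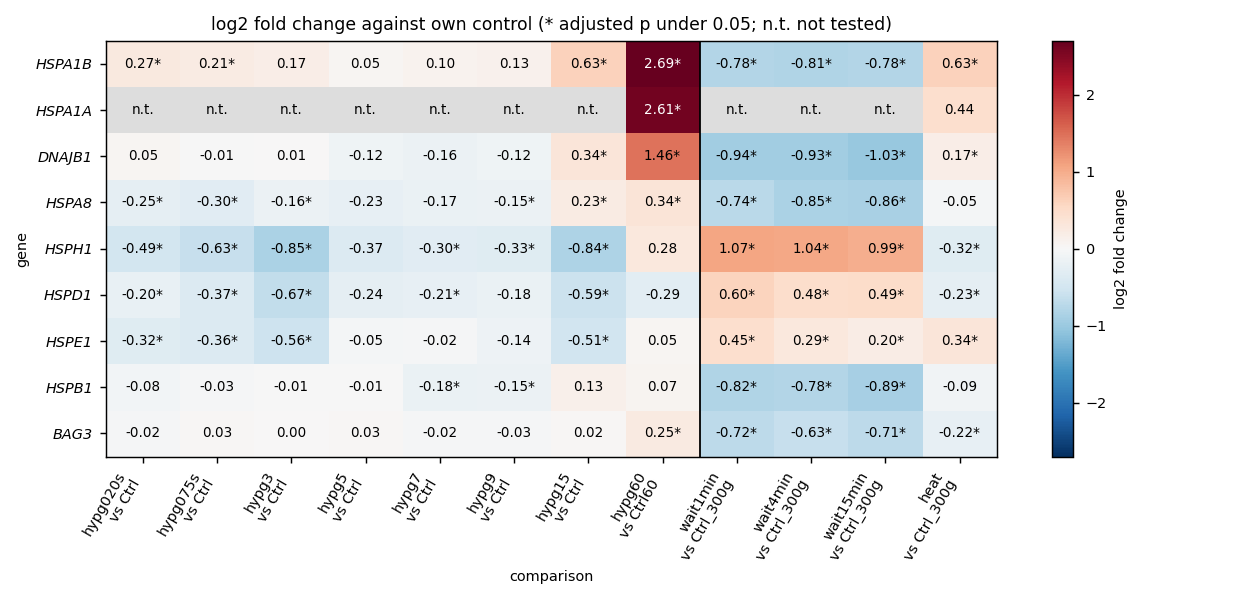
Heat map of log2 fold changes of the 9 genes (rows) in the 12 comparisons of a treated group with its own control (columns), with an asterisk at an adjusted p under 0.05 and n.t. where a gene was not tested. HSPA1A, HSPA1B and DNAJB1 are raised most at hypg60 (2.61, 2.69 and 1.46), and HSPH1 lies below 0 up to hypg15 and above 0 after 300 g (1.07, 1.04 and 0.99), where the GC correction turns it to −0.26, −0.23 and −0.29. HSPA1A was tested at hypg60 and heat alone, and at hypg60 it passed the filter on low counts only through its libraries there.

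After 300 g, the direction was another. HSPA1B, DNAJB1, HSPA8, HSPB1 and BAG3 were downregulated and HSPH1, HSPD1 and HSPE1 upregulated at all 3 waiting times by edgeR, without correction for GC content. HSPA1B had 17.3, 19.7, 17.6 and 17.9 CPM in Ctrl_300g and 10.2, 11.0, 10.4 and 10.7 CPM at wait1min, all below the controls (−0.78 ± 0.07, adjusted p = 4e-09). DNAJB1 had 178.6, 189.6, 188.0 and 182.7 CPM in the control and 100.2, 99.0, 91.4 and 97.6 CPM at wait1min (−0.94 ± 0.04, adjusted p = 3.6e-13). HSPA8 had 2583, 2531, 2602 and 2525 CPM in the control and 1400, 1802, 1470 and 1499 CPM at wait1min (−0.74 ± 0.06, adjusted p = 4.5e-09). The levels after 300 g were 0.58, 0.52 and 0.60 times the control for these 3 genes, and no library overlapped. HSPB1 had 65.3, 65.7, 65.4 and 65.3 CPM in the control and 37.3, 36.4, 37.5 and 38.0 CPM at wait1min (−0.82 ± 0.04), and BAG3 42.8, 47.2, 48.5 and 48.2 CPM and 32.1, 27.1, 26.3 and 29.1 CPM (−0.72 ± 0.06).

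HSPH1 had 127.6, 106.7, 114.9 and 98.8 CPM in Ctrl_300g and 227.9, 245.7, 236.0 and 239.5 CPM at wait1min, a 2.11-fold higher level (1.07 ± 0.06, adjusted p = 7.8e-12). HSPD1 had 676.3, 671.9, 722.8 and 658.8 CPM in the control and 974.6, 1153, 997.4 and 1023 CPM at wait1min (0.60 ± 0.05, adjusted p = 5.8e-09), and HSPE1 73.9, 57.1, 66.6 and 52.1 CPM and 82.0, 95.1, 85.3 and 81.5 CPM (0.45 ± 0.08, adjusted p = 5.4e-05). Again no library overlapped. All 8 tested members were called at each waiting time, 3 up and 5 down, but so were 81.5% (41.4% up, 40.1% down), 82.2% (41.7% up, 40.6% down) and 82.3% (41.8% up, 40.5% down) of all genes, and a share near this background is not a result about the chaperones.

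At the longer waiting times the values were similar. At wait4min and wait15min, HSPA1B was at −0.81 and −0.78, DNAJB1 at −0.93 and −1.03, HSPA8 at −0.85 and −0.86 and HSPH1 at 1.04 and 0.99. HSPE1 was at 0.29 (adjusted p = 0.00039) and 0.20 (adjusted p = 0.026). At wait15min its call was lost without library 50 (0.16) or 52 (0.12) of Ctrl_300g or library 61 (0.16), 62 (0.20) or 63 (0.18) of wait15min, and DESeq2 did not call it there (0.19, adjusted p = 0.14). Between wait15min and wait1min, edgeR called 0 of 8 tested members (0.149% of all genes, 0.0115% up and 0.138% down), while 5 had an unadjusted p under 0.05 (DNAJB1, HSPH1, HSPA8, HSPD1 and HSPE1) and DESeq2 called HSPE1 alone. All 4 libraries of HSPE1 at wait15min, with 77.3, 72.1, 74.0 and 63.9 CPM, lay below those at wait1min (−0.25 ± 0.05, adjusted p = 0.081).

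The changes at 300 g moved with GC content: across genes, Spearman's rho of log2 fold change with GC content was −0.70, −0.68 and −0.67, and the genes lower in GC content (HSPH1, HSPD1, HSPE1) were those that rose, with HSPA8 as the exception. After correction for GC content, HSPH1 changed direction and was called as downregulated at −0.26 ± 0.04, −0.23 ± 0.03 and −0.29 ± 0.03. HSPA1B was then at −0.067, −0.14 and −0.10 and called at wait4min alone (adjusted p = 0.033). HSPB1 was at −0.062, −0.085 and −0.18, called at wait4min (adjusted p = 0.037) and wait15min (adjusted p = 0.00028), and BAG3 at −0.012, 0.035 and −0.043 and not called. HSPA8 was at −0.71, −0.81 and −0.83 and HSPE1 at 0.49, 0.33 and 0.24, while DNAJB1 shrank to −0.31, −0.34 and −0.43 and HSPD1 to 0.39, 0.30 and 0.30, all called. Markers of the T lineage moved as well, 2 up and 7 down of 10 at wait1min, with a sum of 2763 to 2920 CPM against 3952 to 4018 CPM in the control, and CD79A fell by 0.98 on the log2 scale. Their part in the results was not tested. In bulk RNA, fewer responding cells and less RNA per cell cannot be told apart.

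**Figure D4:**
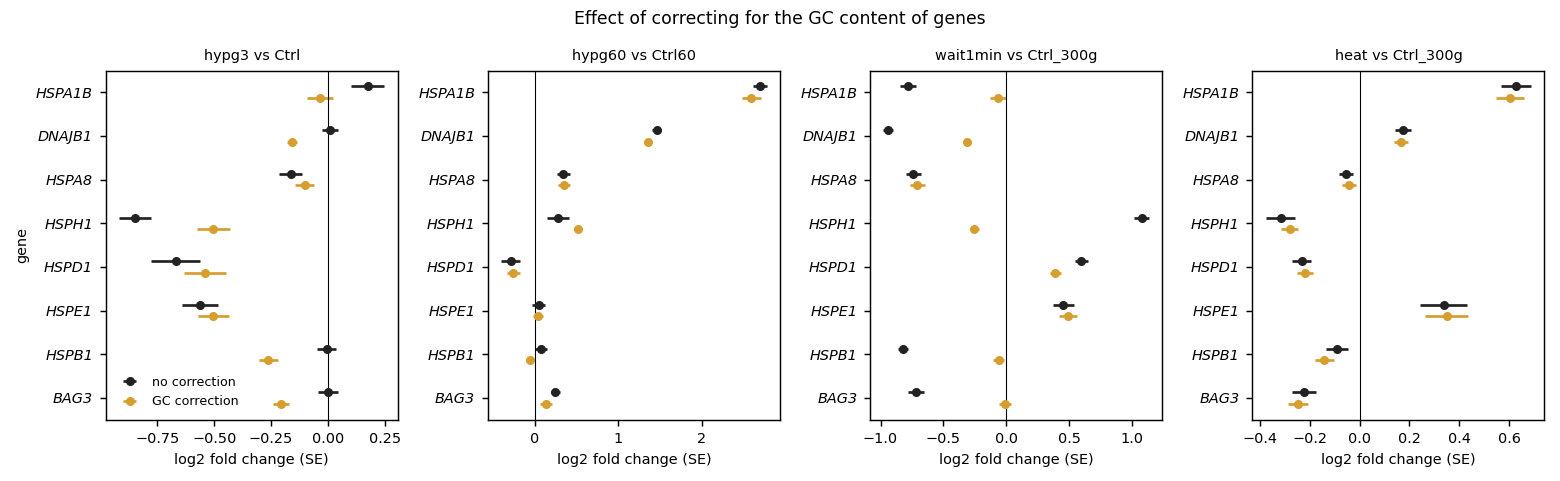
Log2 fold change (horizontal axis, whiskers of 1 SE) of 8 genes (rows, without HSPA1A) with and without correction for GC content at hypg3, hypg60, wait1min and heat. At hypg60 and heat both values lie close together for HSPA1B and DNAJB1, while at wait1min HSPH1 goes from 1.07 to −0.26 and HSPA8 stays near −0.7.

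Among the members, heat shock of 5 min raised HSPA1B most. It had 28.2, 25.7, 25.5 and 27.0 CPM, all above the 17.3 to 19.7 CPM of Ctrl_300g, a 1.55-fold higher level (0.63 ± 0.06, adjusted p = 2.4e-06). DNAJB1 rose to 200.8, 186.6, 206.7 and 201.4 CPM, of which 3 libraries lay above all controls (0.17 ± 0.03, adjusted p = 0.00096). HSPE1 had 68.8, 65.5, 75.8 and 91.5 CPM and overlapped with the control (0.34 ± 0.09, adjusted p = 0.017). Its call was lost without library 50 of Ctrl_300g (0.29, adjusted p = 0.051) or library 68 of heat (0.24, adjusted p = 0.052), and DESeq2 did not call it (0.33, adjusted p = 0.0884). HSPA1A, with 11 to 15 counts, was at 0.44 ± 0.28 (adjusted p = 0.30).

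HSPH1, HSPD1 and BAG3 were downregulated by heat. HSPH1 had 82.6, 81.1, 84.8 and 94.5 CPM (−0.32 ± 0.06, adjusted p = 0.0012), HSPD1 532.6, 571.2, 585.2 and 525.7 CPM (−0.23 ± 0.04, adjusted p = 0.00043) and BAG3 between 37.5 and 38.9 CPM (−0.22 ± 0.05, adjusted p = 0.0029), all below the controls. HSPA8 (−0.054 ± 0.028) and HSPB1 (−0.09 ± 0.04, adjusted p = 0.17) did not pass the test, although their libraries lay below all controls too. HSPB1 was called without library 67 of heat (−0.13, adjusted p = 0.045) and with the GC correction (−0.14, adjusted p = 0.0078). Leaving out HSPA1A, 6 of 8 members were called (3 up, 3 down; 20.8% of all genes, 10.6% up and 10.2% down). The 6 calls held with the GC correction, and Spearman's rho with GC content across genes was 0.15. Of 10 T lineage markers, 1 was up and 3 were down after heat, with a sum of 3575 to 3946 CPM against 3952 to 4018 CPM in the control. Their part in the results was not tested.

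**Figure D5:**
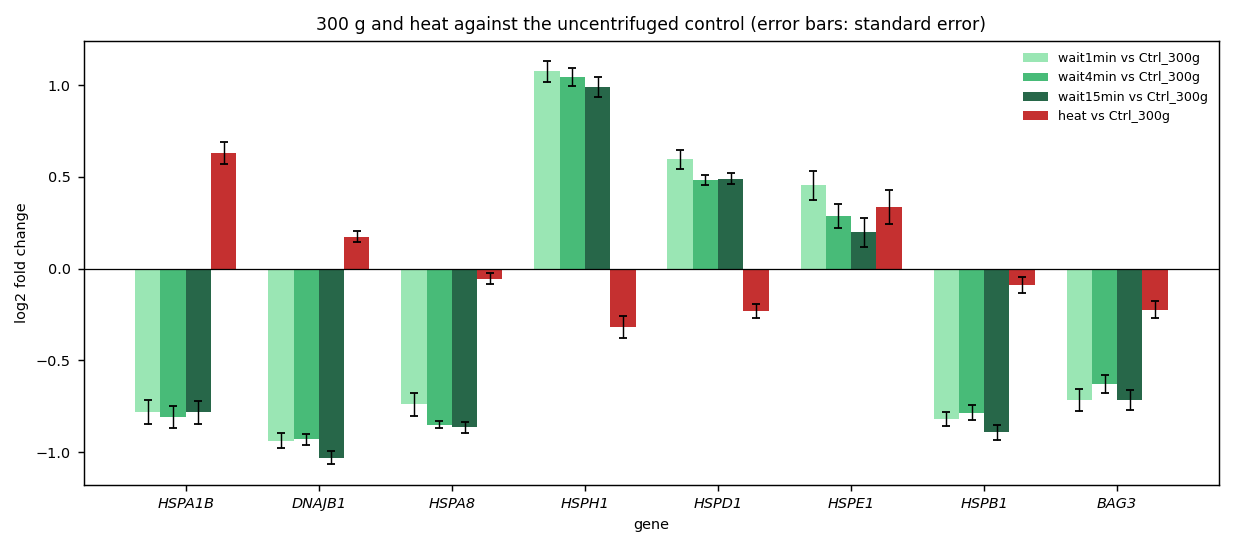
Log2 fold change against Ctrl_300g (bars from 0, whiskers of 1 SE) of 8 genes (without HSPA1A) at wait1min, wait4min, wait15min and heat. HSPA1B is raised at heat (0.63) and lowered at the 3 waiting times (−0.78, −0.81 and −0.78), and HSPH1 shows the opposite signs, all without correction for GC content, with which HSPH1 lies below 0 in all 4 groups.

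The difference between heat and 300 g was tested directly as heat against wait1min. HSPA1B was 1.32 ± 0.06 higher after heat, DNAJB1 1.02 ± 0.04, HSPA8 0.59 ± 0.06, HSPB1 0.64 ± 0.05 and BAG3 0.40 ± 0.06, while HSPH1 was lower by −1.49 ± 0.05, HSPD1 by −0.92 ± 0.05 and HSPE1 by −0.21 ± 0.08 (log2; all 8 members besides HSPA1A called, 5 up and 3 down; 81.1% of all genes, 39.1% up and 42% down). With the GC correction, HSPH1 was at −0.11 ± 0.04 (adjusted p = 0.0099), HSPD1 at −0.69 and HSPE1 at −0.22, while DNAJB1 was at 0.38 ± 0.04 (adjusted p = 3.4e-08), HSPA1B at 0.58 ± 0.06 (adjusted p = 3.4e-08) and HSPA8 at 0.58. HSPB1 and BAG3 turned to −0.17 and −0.33, giving 3 up and 5 down. HSPE1 lost its call by DESeq2 (−0.18, adjusted p = 0.0739) and without library 65 (−0.16) or 66 (−0.14) of heat, and HSPA1A gained 1 without library 53 of wait1min (0.86, adjusted p = 0.033). HSPA1A passed the filter on low counts here only through heat, with 11 to 15 counts per library against 4 to 11 at wait1min.

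Both wait1min and hypg5 followed 5 min in a centrifuge. The cell concentration, the vessel, the time until lysis, the treatment of the control and the experiment differed as well and cannot be told apart from the force. The difference of the changes at wait1min and hypg5 was −0.83 ± 0.12 for HSPA1B, −0.82 ± 0.09 for DNAJB1, −0.50 ± 0.11 for HSPA8, −0.81 ± 0.07 for HSPB1, −0.74 ± 0.10 for BAG3, 1.45 ± 0.15 for HSPH1, 0.84 ± 0.12 for HSPD1 and 0.51 ± 0.12 for HSPE1. These 8 members were called, against 72.6% of all genes (34.7% up and 37.9% down). After the GC correction, DNAJB1 (−0.15), HSPA8 (−0.48), HSPD1 (0.61) and HSPE1 (0.53) remained called, and HSPH1 was at 0.014.

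Further genes of the proteostasis network were counted in lists. Of 30 further chaperones and cochaperones that were tested (of 33 listed), 10, 16, 16, 3, 10, 11 and 16 were downregulated from hypg020s to hypg15 and at most 2 upregulated. Of all genes, 8.58%, 14.4%, 24.4%, 1.69%, 6.19%, 8.34% and 27.9% were downregulated at these times. The upregulated share of all genes was 6.66%, 16.8%, 16.9%, 4.33%, 6.64%, 11.3% and 25.4%. At hypg60, 5 were up and 5 down, with a median of −0.08, against 17.1% and 13% of all genes. HSPA6, another strictly inducible HSP70 gene, had the largest rise there, with 5.77, 6.33 and 7.45 CPM against 0.225, 0.383 and 0.583 CPM (4.07 ± 0.16, adjusted p = 4.6e-10). Its counts are uncertain because of the near-identical HSPA7, and it passed the filter on low counts there only through its hypg60 libraries. SERPINH1, the collagen chaperone of the endoplasmic reticulum (0.77 ± 0.10), and CHORDC1, an HSP90 cochaperone (0.49 ± 0.16), rose, while HSPA13 (−0.71 ± 0.18), CACYBP (−0.50 ± 0.09) and the mitochondrial HSP70 gene HSPA9 (−0.33 ± 0.07) fell. After correction for GC content, HSPA6 was at 3.96, SERPINH1 at 0.65, CHORDC1 at 0.82, HSPA13 at −0.36, CACYBP at −0.39 and HSPA9 at −0.28, all called. After heat, 2 of 30 were up and 4 down (median −0.03; 10.6% and 10.2% of all genes): HSPA6 (1.23 ± 0.20, adjusted p = 0.00038) rose, and CACYBP (−0.16 ± 0.05), ST13 (−0.16 ± 0.03) and DNAJB6 (−0.12 ± 0.03) were the largest falls.

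At wait15min, 12 of the 30 were up and 18 down (median −0.37; of all genes, 41.8% were up and 40.5% down), led by HSPA4L (2.34 ± 0.06), CHORDC1 (2.33 ± 0.06) and HSPA13 (1.82 ± 0.08) and by UBB (−1.17 ± 0.03), HSPBP1 (−1.07 ± 0.04) and FKBP4 (−1.01 ± 0.03). With the GC correction, these were 1.06, 0.81 and 0.17 as well as −0.70, −0.36 and −0.51, all still called. The 8 subunits of the cytosolic chaperonin TRiC had 5 downregulated and 0 upregulated members at hypg60 (median −0.20; of all genes, 17.1% were up and 13% down), 2 up and 6 down at wait15min and 0 up and 1 down after heat. Of 12 chaperones of the endoplasmic reticulum, 3, 4, 8, 0, 2, 2 and 6 were down from hypg020s to hypg15 and at most 1 up. Of all genes, 8.58%, 14.4%, 24.4%, 1.69%, 6.19%, 8.34% and 27.9% were down at these times. EdgeR called 0 of the 12 at hypg60, where 3 had an unadjusted p under 0.05 and DESeq2 called 2 as downregulated. At wait15min 4 of them were up and 8 down, and after heat 2 were down (10.2% of all genes).

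Of the factors themselves, HSF1, HSF2 and HSF4 were tested and HSF5 did not pass the filter. HSF1 had 234.2, 318.3 and 359.2 CPM at hypg60 and 279.1, 298.4 and 310.4 CPM in Ctrl60 (0.07 ± 0.08, adjusted p = 0.54), and 0.03 ± 0.04 after heat (adjusted p = 0.66). HSF4 had 1.68, 3.05 and 3.18 CPM at hypg60 and 1.40, 1.51 and 2.32 CPM in Ctrl60 (0.68 ± 0.18, adjusted p = 0.011). At 9 g, all 3 factors were called at hypg3 and hypg15 (2 up, 1 down), 2 at hypg075s and 1 at hypg9 (all up), against 41.3%, 53.4%, 31.3% and 19.6% of all genes. HSF1 had 333.0 to 383.9 CPM at hypg15 and 268.2 to 308.2 CPM in Ctrl, without overlap (0.31 ± 0.05, adjusted p = 0.00014), and was at 0.19 ± 0.04 at hypg3. With the GC correction 1 factor was called at hypg3 (down) and 0 at hypg15, and with 3 surrogate variables 0 at both. At wait1min HSF1 fell by 0.72 and HSF2 and HSF4 rose by 0.86 and 1.39 on the log2 scale, where 81.5% of all genes were called. The GC correction left 1 of the 3 up and 1 down there. After heat, edgeR called 0 of the 3, with 1 at an unadjusted p under 0.05 (HSF4), and DESeq2 called 0.

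Over the 12 log2 fold changes against control, the genes most alike to the summed HSPA1A and HSPA1B were MAT2A (Pearson's r of 0.93), which forms S-adenosylmethionine, SERPINH1 (0.92) and ZNF250 (0.92), among 9008 genes considered. Their changes at hypg60 were 0.44, 0.77 and 0.36. The genes most alike to HSPA8 were HERPUD1 (0.99), a component of protein degradation at the endoplasmic reticulum, BSCL2 (0.98) and TRIM69 (0.98). The 12 comparisons share control libraries and GC trends, and hypg60 weighs most for the former, so these values are a description.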

How the data were processed

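RNA was extracted from lysed Jurkat T cells, depleted of ribosomal RNA and sequenced from a directional library. Per the labels, reads were trimmed with Trim Galore 0.6.5 and aligned with STAR 2.7.3a to hg38, and the authors counted read pairs per gene with featureCounts. The labels give featureCounts 2.0.1 and the file header 2.0.3, with annotation GRCh38.104, reverse strand and no pairs with several positions. The values are the deposited raw counts of 80 libraries. A broken record was left out, as was library 75 of hypg15. The groups wait4min and wait1min carry other times in their column names (1min and instant), and groups follow the labels.

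Counts were tested with edgeR 4.0.16 (quasi-likelihood F test, TMM normalization, filterByExpr with a minimum count of 10) in R 4.3.3, and each model held just the groups being compared. P-values were two-sided and adjusted by Benjamini-Hochberg over all genes tested, with a threshold of 0.05. SE is the absolute log2 fold change divided by the square root of F. Alternatives were DESeq2 1.42.0, RLE normalization, total counts only, no filter, all groups in the model, a lowess correction for GC content (span 0.3), 3 surrogate variables at 9 g (sva 3.50.0), library 75 kept, HSPA1A and HSPA1B added up, and each library of hypg15, 300 g and heat comparisons left out in turn. The procedure was tested on simulated data.

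All 9 members are named. Of the list of further chaperones, up to 3 rising and 3 falling called genes with the largest change and a mean of at least 1 CPM were named at hypg60, wait15min and heat. For alike patterns, the 3 genes of highest Pearson's r with a mean of at least 10 CPM were named. The members and lists were chosen with earlier results of these data known. Some genes that these rules or lists hold are not reported here.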

Additional observations from a re-analysis of the deposited data

Results flagged for a closer look

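Among the 135 combinations of a member and a group, 8 held a library far from the others of its group, and chance gives about 1 in 20 groups. HSPA1A had 2.39 CPM in library 47 of hypg60. HSPH1 had 44.4 CPM in library 29 of hypg5 (nearest 66.5 CPM) and 160.6 CPM in library 44 of hypg60 (nearest 106.6 CPM). HSPD1 had 987.3 CPM in library 59 of wait4min (nearest 951.1 CPM). HSPE1 had 46.3 CPM in library 3 of Ctrl (nearest 40.5 CPM) and 21.0 CPM in library 73 of hypg3 (nearest 27.9 CPM). HSPB1 had 45.9 CPM in library 9 of Ctrl60 (nearest 53.2 CPM), and BAG3 42.4 CPM in library 16 of hypg020s (nearest 45.2 CPM).

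The effects of hypg60 and hypg9, each against its own control, differed by the test of the difference (log2) in HSPA1B (2.58), DNAJB1 (1.59), HSPA8 (0.51) and BAG3 (0.29), where 2.04% of all genes were called, and in HSPA1A (2.86), which passed the filter on low counts only through hypg60. Those of wait1min and hypg5 differed in HSPA1B (−0.83), DNAJB1 (−0.82), HSPH1 (1.45), HSPA8 (−0.50), HSPD1 (0.84), HSPE1 (0.51), HSPB1 (−0.81) and BAG3 (−0.74), where 72.6% of all genes were called. Of these, 4 remained called with the GC correction, HSPH1 was at 0.014, and HSPB1 and BAG3 changed sign.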

How the results depend on the processing

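No paired analysis was possible because the labels number the libraries consecutively and the groups share no replicate numbers. The rise of HSPA1B, DNAJB1 and HSPA8 at hypg60 kept its call with the GC correction and with 3 surrogate variables. Among values called with or without the alternative, the GC correction changed the sign of HSPH1 at wait1min, wait4min and wait15min (−0.26, −0.23 and −0.29), BAG3 at hypg075s, hypg3, hypg15 and wait4min (−0.10, −0.21, −0.24 and 0.035), DNAJB1 at hypg3 (−0.16), HSPB1 at hypg15 (−0.21), HSPB1 and BAG3 in heat against wait1min (−0.17 and −0.33) and HSPB1 and BAG3 in the difference of wait1min and hypg5 effects (0.028 and 0.0082). With 3 surrogate variables, HSPD1 at hypg15 changed sign (0.071). No such value changed sign under the other alternatives, and the cause was not tested.

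The number of members called changed by more than 1.5 times as follows, with the share of all genes called in the same setting in parentheses. With 3 surrogate variables it was 2 at hypg15 (1.04%), 2 at hypg5 (5.3%), 1 at hypg7 (DNAJB1; 4.19%), 0 at hypg9 (1.9%), 2 in Ctrl60 against Ctrl (0.574%) and, with HSPA1A included, 8 in the difference of hypg60 and hypg9 effects (7.57%). With the GC correction it was 4 at hypg5 (15.8%), 5 at hypg7 (21.9%), 5 at wait1min (71.3%), 1 in Ctrl60 against Ctrl (0.0621%) and 4 in the difference of wait1min and hypg5 effects (56.3%). With DESeq2 it was 2 at hypg5 (8.06%), 5 at hypg7 (14.8%) and 1 in wait15min against wait1min (0.264%). RLE gave 1 at hypg5 (5.93%), and all groups in the model gave 2 at hypg5 (7.73%) and 1 at hypg9 (15.2%). Total counts only gave 1 at hypg5 (8.53%), 1 in Ctrl60 against Ctrl (0.0435%) and 1 in wait15min against wait1min (0.246%), and no filter gave 1 at hypg5 (1.66%) and 2 in wait15min against wait1min (0.805%). At hypg3, RLE (42.3%) and all groups in the model (36.9%) gave 1 up and 3 down, total counts only (43.1%) and DESeq2 (41.3%) 1 up and 4 down and 3 surrogate variables (6.21%) 1 up and 2 down. In heat against wait1min, RLE (81.3%) gave 6 up and 2 down and the GC correction (71.3%) 3 up and 5 down. With single libraries left out, 6 to 7 members were called at hypg15, 8 to 8 at wait1min and wait4min, 7 to 8 at wait15min, 5 to 7 after heat, 0 to 0 in wait15min against wait1min and 7 to 9 in heat against wait1min. The 9 included HSPA1A, which passed the filter on low counts there only through heat. Scaling by total counts only moved the median log2 fold change of all genes from 0.0055, 0.0091 and 0.010 to 0.25, 0.27 and 0.27 at the 3 waiting times. The low counts of HSPA1A limit its precision.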
